A study of Homo sapiens with 2 samples.

Results

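The genes described here are 10 genes of epithelial cell adhesion, namely the cadherins CDH1, CDH2 and CDH3, the adhesion molecule EPCAM, the claudins CLDN3, CLDN4, CLDN6, CLDN7 and CLDN10, and the scaffold TJP1. They were taken by symbol from a table of 62700 genes, in which all 10 were found, and by identifier from a table of 251955 transcripts, in which 63 belonged to them. The samples were 2 replicate libraries of polyadenylated RNA from TCam-2, a human line established from a seminoma, which is a germ cell tumour of the testis. The cells of both libraries had been transduced with DDX53, which encodes an RNA helicase of the DEAD-box family, in a construct that the series' design gives as FLAG-tagged. Cells with a GFP-FLAG construct and untransduced cells are named there as controls for a search for expression and splicing changes, and they were not analysed here. The series therefore holds 1 group, no effect of DDX53 could be computed, and the comparisons below are between genes, between transcripts and between the libraries. The labels do not say whether the replicates were separate cultures or transductions, so their spread may be technical, and the promoter that drives the construct was not given in the sources used here.

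Classical cadherins join neighbouring cells through calcium-dependent binding of their outer domains, and their tails hold catenins that link to actin. Claudins form the strands of tight junctions that seal the space between cells, and ZO-1, the product of TJP1, ties those strands to the cytoskeleton. EPCAM is an epithelial membrane protein that binds certain claudins and is also found on pluripotent and germ cells. A change from E-cadherin to N-cadherin is a textbook mark of the epithelial-mesenchymal transition, and seminoma cells resemble primordial germ cells, which carry both epithelial and migratory features.

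Depth was 24137664 reads for replicate 1 and 22198929 for replicate 2. A count of 0 allows up to 3 reads, or 0.124 and 0.135 CPM, where CPM is a gene's reads scaled to a common library total. Without molecular identifiers, the intervals and limits given below cover error from counting alone. DDX53 itself received 146 and 147 reads, or 6.05 and 6.62 CPM, and without a control library this does not tell the construct from the endogenous gene. All 8 listed markers of TCam-2 were detected, with a summed level of 5117 CPM in replicate 1 and 5141 CPM in replicate 2. Of the embryonal carcinoma markers 1 of 3 was detected (3.44 and 2.39 CPM in sum), of the endothelial markers 2 of 5 (5.63 and 7.93 CPM), of the blood markers 1 of 4 (2.73 and 2.61 CPM) and of the Sertoli and Leydig markers 1 of 5 (7.66 and 6.76 CPM). PTPRC, CD3E and CLDN5 had no read in either library. Of the fibroblast markers 3 of 6 were detected, and the collagen gene COL1A2 gave most of their sum of 490 and 466 CPM, while DCN had 1 read in each library. In bulk RNA, fewer cells of a type and less RNA per cell cannot be told apart.

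Transcripts of all 10 genes were detected, with detection set at 1 CPM or more in both libraries. Per unit of transcript length, in TPM summed over the transcripts of a gene, EPCAM and CLDN6 stood far above the rest. P-cadherin (CDH3), CLDN7, N-cadherin (CDH2) and E-cadherin (CDH1) followed at similar levels, then CLDN4, TJP1 and CLDN3, with CLDN10 last. N-cadherin and E-cadherin transcripts were thus present together, and so were those of P-cadherin. The lowest gene, CLDN10, was still above 8 CPM in both libraries.

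**Figure D1:**
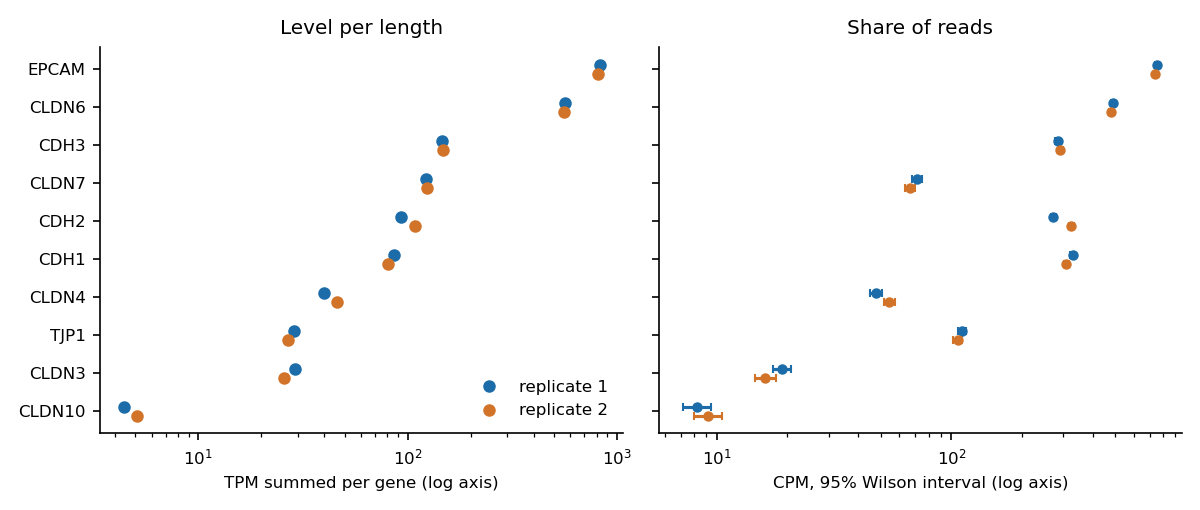
Levels of the 10 adhesion genes in each library, as TPM summed per gene (left, log axis) and as CPM of recovered reads with 95% Wilson intervals (right, log axis), with replicate 1 in blue and replicate 2 in orange. EPCAM and CLDN6 lie to the right of all others in both panels and CLDN10 lies below 10 CPM in both libraries.

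EPCAM (ENSG00000119888.11, chr2:47345158-47387601 of GRCh38, plus strand) had 18110 reads in replicate 1 and 16410 reads in replicate 2, or 750.3 and 739 CPM. Its summed TPM was 827 in replicate 1 and 813 in replicate 2, with a mean of 820.4 ± 9.94 TPM (SD, n = 2). It stood at place 169 of 57815 genes by TPM. The level was nearly the same in both libraries, with a log2 difference of -0.02 (replicate 2 minus replicate 1, on the log2(CPM + 1) scale) and an adjusted p of 0.663 in edgeR's exact binomial test. Most of the TPM lay on EPCAM-201, the full coding transcript of 9 exons and 314 codons, with 80.5% in replicate 1 and 77.5% in replicate 2. EPCAM-206, a transcript of 752 bases that the annotation classes as a retained intron, took 17.7% and 20.6%. Restricted to protein-coding transcripts, EPCAM was at 661 ± 23.8 TPM (SD, n = 2) and still the highest of the 10.

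The classical cadherins were next examined by name. CDH1 (ENSG00000039068.20, chr16:68737225-68835548, plus strand), which encodes E-cadherin of epithelial adherens junctions, had 7929 and 6843 reads. That is 328 CPM in replicate 1 (95% Wilson interval, 321 to 336) and 308 CPM in replicate 2 (301 to 316). The libraries lay apart beyond counting error, with replicate 2 the lower. The log2 difference was -0.09 and the adjusted p was 0.00602 (edgeR's exact binomial test, Benjamini-Hochberg adjustment). The summed TPM of CDH1 was 83.3 ± 3.76 (SD, n = 2), and 99.7% and 99.8% of it lay on CDH1-201, the transcript of 16 exons that codes for the full protein of 882 residues.

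CDH2 (ENSG00000170558.10, chr18:27950966-28177446, minus strand) encodes N-cadherin, the cadherin of neural and mesenchymal cells. Replicate 1 gave 6569 reads and replicate 2 gave 7208, although replicate 2 was the shallower library. The CPM values were 272 (95% Wilson interval, 266 to 279) and 325 (317 to 332). Replicate 2 was higher, and the intervals did not overlap. The log2 difference of 0.25 was the largest in size among the 10 genes, with an adjusted p of 3.92e-24 in edgeR's exact binomial test. TPM gave 92.8 in replicate 1 and 108 in replicate 2, a mean of 100.55 ± 10.97 (SD, n = 2), all of it on CDH2-201 of 16 exons and 906 codons.

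CDH3 (ENSG00000062038.15, chr16:68636189-68722616, plus strand) encodes P-cadherin, which is known from placenta and from basal epithelial layers. Its 6858 and 6475 reads gave 284 CPM in replicate 1 (95% Wilson interval, 277 to 291) and 292 CPM in replicate 2 (285 to 299). The intervals overlapped, the log2 difference was 0.04, and the adjusted p was 0.252 in edgeR's exact binomial test. CDH3 lies 14608 bases before CDH1 on the same strand, with 0 protein-coding genes between them. The neighbours therefore differed in the sign of their replicate difference, though only that of CDH1 was called.

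The transcript makeup of CDH3 was unlike that of the other cadherins. CDH3-203, classed in the annotation as a target of nonsense-mediated decay, took 36.0% of its TPM in replicate 1 and 40.1% in replicate 2. CDH3-202, a coding transcript of 784 codons, took 33.4% and 31.1%, and CDH3-206, a transcript of 892 bases also classed under nonsense-mediated decay, took 25.7% and 22.9%. CDH3-201, which codes for 829 residues, held 2.46% and 3.68%. Protein-coding transcripts together came to 38.2% and 36.7% of CDH3, or 54.8 ± 1.19 TPM (SD, n = 2). On that restricted scale CDH3 dropped from the third place among the 10 to the sixth, below CDH2 and CDH1. Such shares come from the authors' estimate over transcripts with shared exons, and no depth per transcript was given, so no interval could be attached.

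Ratios between the cadherins were taken per length within each library. CDH2 to CDH1 was 1.08 in replicate 1 and 1.34 in replicate 2 on the TPM scale. As shares of reads, the same ratio was 0.828 and 1.05, so the order of N-cadherin and E-cadherin depended on the scale in replicate 1. CDH3 to CDH1 was 1.69 and 1.82 in TPM from all transcripts of CDH3, but 0.865 and 0.946 as shares of reads, so this order turned with the scale in both libraries.

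Among all 23 genes with a numbered CDH symbol, CDH1, CDH2 and CDH3 carried nearly all the transcript. They held 92.7% of the family's TPM in replicate 1 and 93.4% in replicate 2. CDH3 took 41.6% and 40.9%, CDH2 took 26.5% and 30.1%, and CDH1 took 24.6% and 22.4%. The only other cadherin above 4% of the family was CDH4, or R-cadherin, at 4.42% and 4.56%. Of the 23 genes, 8 were detected and 4 (CDH7, CDH9, CDH19 and CDH22) had no read in either library. The remaining detected ones were CDH4 with 80.2 and 84.2 CPM, CDH24 with 6.96 and 9.37 CPM, CDH8 with 4.56 and 3.29 CPM, CDH23 with 3.15 and 1.49 CPM, and CDH5, the endothelial cadherin, with 1.41 and 1.62 CPM. CDH24 was called higher in replicate 2 (adjusted p = 0.0331) and CDH23 lower (adjusted p = 0.00379) by edgeR's exact binomial test.

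**Figure D2:**
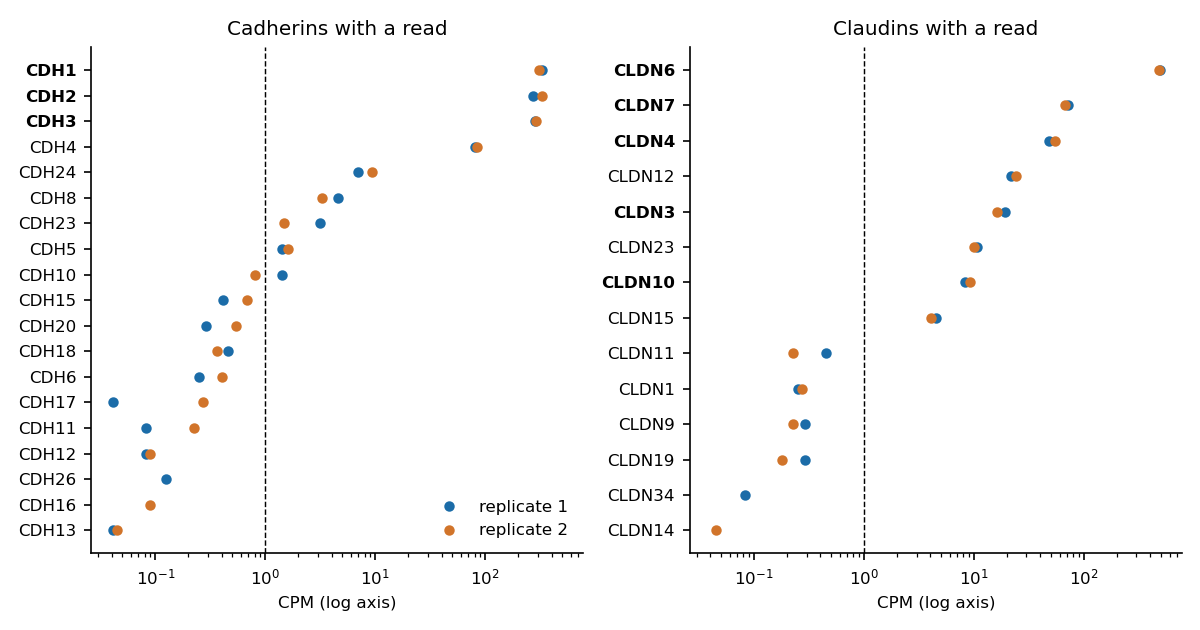
CPM (log axis) of each gene with a numbered CDH symbol (left) or CLDN symbol (right) that had a read, replicate 1 in blue and replicate 2 in orange, with the dashed line at the detection threshold of 1 CPM and the genes described here in bold. A gene with no read in a library has no point for it, and 8 genes of each family lie above the line in both libraries.

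Claudin transcript was mostly CLDN6, a claudin of embryonic epithelia and pluripotent cells that is used as a marker of germ cell tumours. CLDN6 (ENSG00000184697.7, chr16:3014712-3020071, minus strand) had 11759 and 10643 reads, or 487 CPM in replicate 1 and 479 CPM in replicate 2. The intervals overlapped (478 to 496 and 470 to 489), and the adjusted p was 0.703 in edgeR's exact binomial test. TPM gave 565 and 557, a mean of 561 ± 6.03 (SD, n = 2). CLDN6 stood at place 254 of all genes by TPM, and EPCAM exceeded it 1.46-fold in each library. CLDN6-201, which codes for the full protein of 220 residues, took 88.5% and 89.6% of the TPM, and CLDN6-203, with a coding stretch of 39 codons, took 11.3% and 10.3%.

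Sequence shared with other genes was counted for the main transcript of each of the 10. Of the 31-base words of CLDN6-201, 19.6% occurred in transcripts of other genes, the largest share among the 10. Most of this, 15.2% of the words, was shared with AL353807.1, a processed pseudogene on chromosome 1 from 155590601 to 155591262. The pseudogene had 1 read in each library, and the reads of CLDN6 were 1.02 and 1.01 times those predicted from its TPM and transcript lengths. CLDN9 lies on the other strand, with its end 206 bases from the end of CLDN6, and had 7 and 5 reads.

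The promoter of CLDN6 is shown because it is the start of the most abundant claudin. The window is chr16:3018134-3018433 of GRCh38.p14, minus strand, 250 bases before to 50 bases after the start that RefSeq gives, read 5′ to 3′. The starts of CLDN6-201 and CLDN6-203 lie within 50 bases of it, and these held 99.8% and 99.9% of CLDN6 TPM. Capitals mark matches to CAGGTG, the E-box bound by SNAI and ZEB proteins, and to GGGCGG, the GC box, each searched on both strands.
CLDN6: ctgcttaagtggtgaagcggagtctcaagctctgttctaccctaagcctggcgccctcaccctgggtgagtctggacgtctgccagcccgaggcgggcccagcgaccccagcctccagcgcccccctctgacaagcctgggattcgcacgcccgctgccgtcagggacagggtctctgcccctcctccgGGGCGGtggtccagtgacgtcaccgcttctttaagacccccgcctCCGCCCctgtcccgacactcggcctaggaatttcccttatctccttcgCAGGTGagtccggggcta
It holds 1 E-box and 2 GC boxes, with a GC content of 66% and 21 CpG sites. Over 35116 such windows of 27305 genes, 20.6% held CAGGTG and 45.0% held GGGCGG, the median GC content was 58.7% and the median number of CpG sites was 14. A match is a string of letters and not a bound site.

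CLDN7 (ENSG00000181885.18, chr17:7259903-7263983, minus strand), an epithelial claudin known to bind EPCAM, was the second claudin. It had 1721 and 1480 reads, or 71.3 CPM in replicate 1 (95% Wilson interval, 68.0 to 74.7) and 66.7 CPM in replicate 2 (63.4 to 70.2). The intervals overlapped, and the adjusted p was 0.283 in edgeR's exact binomial test. Its TPM of 123 and 124 (mean 123 ± 0.376, SD, n = 2) hardly differed between the libraries, and the log2 difference of -0.10 from reads became 0.0062 from TPM. The reads were 0.631 and 0.603 times the number that its TPM and transcript lengths predict. Of the 31-base words of CLDN7-201, 15.8% were shared with the overlapping gene AC003688.1 (chr17:7246829-7262089), which had 0 reads in both libraries. The part of this overlap in the low read number was not tested.

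CLDN7 transcripts began at separate starts. CLDN7-201 held 65.2% of the TPM in replicate 1 and 61.0% in replicate 2, CLDN7-202 held 21.1% and 20.7%, and CLDN7-208 held 8.30% and 11.8%. CLDN7-201 and CLDN7-202 both code for 211 residues. RefSeq windows cover both starts, and they are shown because the abundant transcripts divide between them (GRCh38.p14, minus strand, 5′ to 3′, capitals as above). The downstream one is chr17:7262429-7262728 and contains the start of CLDN7-201. The upstream one is chr17:7263164-7263463 and contains the starts of CLDN7-202, CLDN7-206 and CLDN7-208, together 31.2% and 34.2% of the TPM.
CLDN7 downstream: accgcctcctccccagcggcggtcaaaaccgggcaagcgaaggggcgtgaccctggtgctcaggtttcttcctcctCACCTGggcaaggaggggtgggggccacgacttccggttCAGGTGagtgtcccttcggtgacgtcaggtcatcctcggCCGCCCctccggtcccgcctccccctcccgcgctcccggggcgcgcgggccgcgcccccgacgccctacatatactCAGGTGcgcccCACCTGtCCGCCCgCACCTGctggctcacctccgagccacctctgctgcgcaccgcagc
CLDN7 upstream: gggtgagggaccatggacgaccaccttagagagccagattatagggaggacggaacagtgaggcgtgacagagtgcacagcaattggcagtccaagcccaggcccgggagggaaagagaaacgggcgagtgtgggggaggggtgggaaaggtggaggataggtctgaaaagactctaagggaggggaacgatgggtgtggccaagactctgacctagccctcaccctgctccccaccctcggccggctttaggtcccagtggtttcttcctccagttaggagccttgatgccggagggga
The downstream window holds 5 E-boxes and 2 GC boxes, a GC content of 71.7% and 30 CpG sites. The upstream window holds none of the searched motifs, a GC content of 60% and 10 CpG sites. The start with the E-boxes was the one with the larger share of transcript in both libraries.

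CLDN4 (ENSG00000189143.10, chr7:73799542-73832693, plus strand) and CLDN3 (ENSG00000165215.6, chr7:73768997-73770270, minus strand) are epithelial claudins known as receptors of a clostridial toxin. The annotated genes lie 29271 bases apart, though the main transcript of CLDN4, CLDN4-201 of 1831 bases, covers only part of its gene. CLDN4 had 1155 and 1208 reads, or 47.9 CPM in replicate 1 (95% Wilson interval, 45.2 to 50.7) and 54.4 CPM in replicate 2 (51.4 to 57.6). Replicate 2 was higher without overlap of the intervals, by 0.18 on the log2 scale, with an adjusted p of 0.0130 in edgeR's exact binomial test. CLDN3 had 458 and 357 reads, or 19.0 CPM (17.3 to 20.8) and 16.1 CPM (14.5 to 17.8). Here replicate 2 was lower, by a log2 difference of -0.23, but the intervals overlapped and the adjusted p was 0.131. The values of these neighbours thus lay in opposite directions, and only CLDN4 passed the threshold. Whether the difference of CLDN4 differed from that of CLDN3 was not tested. In TPM, CLDN4 was at 43.0 ± 4.28 and CLDN3 at 27.4 ± 2.36 (SD, n = 2), a ratio of 1.37 in replicate 1 and 1.79 in replicate 2. Both are intronless in their main transcripts, CLDN4-201 with at least 99.8% of the CLDN4 TPM and CLDN3-201 with 100%. They share 31-base words with each other, 3.30% of those of CLDN3-201 and 2.28% of those of CLDN4-201.

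CLDN10 (ENSG00000134873.10, chr13:95433604-95579759, plus strand) was the lowest of the claudins described. It is known for alternative first exons that give channels of different charge selectivity. Its 198 and 203 reads came to 8.20 CPM (95% Wilson interval, 7.14 to 9.43) and 9.14 CPM (7.97 to 10.5). The intervals overlapped, with an adjusted p of 0.555 in edgeR's exact binomial test. Its TPM of 4.41 and 5.07 (mean 4.74 ± 0.470, SD, n = 2) was low for that number of reads, which was 2.93 and 2.87 times the prediction. No other gene of the 10 was outside a 2-fold range, while 87.2% of 13211 detected genes with a prediction lay within it. Its level per length is therefore uncertain, and the cause was not tested.

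Among its transcripts matched to GENCODE 29, CLDN10-201 held all CLDN10 TPM in replicate 1 and 94.9% in replicate 2. CLDN10-202 was at 5.08% in replicate 2 alone. Deposited transcripts without a match, 50288 over all genes, are outside these shares. CLDN10-203, which starts at the other first exon, was listed at 0 in both libraries. The first exon of CLDN10-201 (chr13:95552725-95552973) lies 118677 bases downstream of that of CLDN10-203 (chr13:95433604-95434047), and they contribute 220 and 214 coding bases. Both join to the same exon 2 (chr13:95560132-95560293, 162 bases). The junctions are shown because they tell the forms apart, from the GENCODE 29 transcripts on GRCh38, 5′ to 3′. Capitals mark the first 30 bases of the shared exon.
CLDN10-201: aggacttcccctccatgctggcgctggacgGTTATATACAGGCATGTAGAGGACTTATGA
CLDN10-203: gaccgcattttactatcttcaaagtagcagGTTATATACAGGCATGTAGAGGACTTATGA
Of the 30 bases in lower case, 7 are identical at the same place. The encoded proteins have 228 and 226 residues.

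RefSeq windows of the alternative CLDN10 starts are shown because, of these, only the downstream one was at a matched transcript with TPM (GRCh38.p14, plus strand, 5′ to 3′, capitals for GGGCGG). CLDN10-202, with 5.08% of the TPM in replicate 2, starts within 50 bases of neither RefSeq start. The downstream window is chr13:95552470-95552769, at CLDN10-201. The upstream window is chr13:95433505-95433804, and no start of a GENCODE 29 transcript lies within 50 bases of its RefSeq start.
CLDN10 downstream: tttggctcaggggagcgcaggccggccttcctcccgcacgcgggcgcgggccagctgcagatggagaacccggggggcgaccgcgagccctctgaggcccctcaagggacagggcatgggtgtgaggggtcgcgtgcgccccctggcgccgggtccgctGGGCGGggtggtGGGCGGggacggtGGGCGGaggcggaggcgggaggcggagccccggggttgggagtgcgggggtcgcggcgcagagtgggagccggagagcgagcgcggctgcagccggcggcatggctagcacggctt
CLDN10 upstream: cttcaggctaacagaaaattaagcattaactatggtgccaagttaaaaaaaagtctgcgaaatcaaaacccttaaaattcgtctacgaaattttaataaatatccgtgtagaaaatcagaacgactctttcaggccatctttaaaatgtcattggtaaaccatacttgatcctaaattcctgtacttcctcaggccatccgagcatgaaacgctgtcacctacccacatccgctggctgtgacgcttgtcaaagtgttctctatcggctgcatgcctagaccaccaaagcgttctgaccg
The downstream window holds 3 GC boxes and 36 CpG sites with a GC content of 77.3%. The upstream window has neither motif, 12 CpG sites and a GC content of 41.7%. Across the members, 7 of 10 genes had RefSeq windows, 13 windows in all, and CDH1, CDH3 and EPCAM had none in the table used. None of the 13 windows held AACCNGTT, the motif of the Grainyhead-like factors searched on both strands, which occurs in 1.73% of all windows. TATAAA, found in 11.5% of all windows, occurred in 1 of the 13, at a RefSeq start of CDH2. No matched CDH2 transcript starts within 50 bases of that start, so no TPM could be assigned to it.

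Across the claudin family the same 5 genes together held nearly all the transcript. CLDN10 had little part in this, with a mean of 4.74 TPM, below CLDN12 (10.5 TPM) and CLDN23 (8.67 TPM) outside the set. CLDN6 took 72.1% of the family's TPM in replicate 1 and 71.3% in replicate 2, CLDN7 took 15.7% and 15.8%, CLDN4 took 5.10% and 5.90%, and CLDN3 took 3.71% and 3.30%. With CLDN10 they came to 97.2% and 97.0%. CLDN6 exceeded CLDN7 by 4.60 and 4.51 times, CLDN4 by 14.1 and 12.1 times, and CLDN3 by 19.4 and 21.6 times in TPM. Of 24 genes with a numbered CLDN symbol, 8 were detected and 10 had no read in either library. The detected genes outside the set were CLDN12 with 21.8 and 24.3 CPM, CLDN23 with 10.7 and 9.96 CPM, and CLDN15 with 4.56 and 4.05 CPM. CLDN5, the claudin of endothelium, was among those without a read. EPCAM, which is known to bind CLDN7, exceeded CLDN7 by 6.73 times in replicate 1 and 6.58 times in replicate 2 in TPM.

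TJP1 (ENSG00000104067.17, chr15:29699367-29968865, minus strand) had 2675 reads in replicate 1 and 2358 reads in replicate 2. The CPM values were 111 (95% Wilson interval, 107 to 115) and 106 (102 to 111). The intervals overlapped, and the adjusted p was 0.469 in edgeR's exact binomial test. With long transcripts, TJP1 was at 27.8 ± 1.27 TPM (SD, n = 2) per length, and its range over the libraries overlapped that of CLDN3. TJP1-204, of 28 exons and 1692 codons, took 52.7% and 57.9% of the TPM. TJP1-203, a transcript of 4 exons and 1032 bases, took 35.7% and 34.1%, and TJP1-201 took 11.6% and 8.02%.

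The main transcripts of TJP1 differ in an exon of 240 bases that encodes the alpha domain of ZO-1, a stretch known to be included in most epithelia and left out in endothelial and some other specialised junctions. It is exon 20 of TJP1-201, at chr15:29719777-29720016, and codes for 80 residues in frame. Transcripts with the exon had 3.34 TPM in replicate 1 and 2.16 TPM in replicate 2, and those that skip it had 15.1 and 15.6 TPM. Among transcripts that span the site, 18.1% of the TPM in replicate 1 and 12.2% in replicate 2 included the exon, a mean of 15.1% ± 4.21 (SD, n = 2). By this estimate, skipping was the more abundant form in both libraries. The share compares whole transcripts, TJP1-201 of 7950 bases and TJP1-204 of 6764 bases, which differ in more than this exon. Reads over the junction itself were not counted. The sequences are shown because the exon is the difference described here, from the GENCODE 29 transcripts on GRCh38, 5′ to 3′ of the minus strand. The exon is in capitals, with 30 bases on either side.
TJP1-201 with exon 20: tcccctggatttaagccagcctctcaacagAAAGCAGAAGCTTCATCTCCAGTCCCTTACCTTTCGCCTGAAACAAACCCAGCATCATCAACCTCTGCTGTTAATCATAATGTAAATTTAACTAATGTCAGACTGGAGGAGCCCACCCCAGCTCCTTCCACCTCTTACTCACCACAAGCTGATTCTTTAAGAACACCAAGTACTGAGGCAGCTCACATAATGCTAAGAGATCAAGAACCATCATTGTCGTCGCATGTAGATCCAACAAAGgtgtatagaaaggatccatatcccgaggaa
TJP1-204 without exon 20: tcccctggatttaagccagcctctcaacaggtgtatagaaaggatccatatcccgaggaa
TJP1-203 does not reach the site and was left out of the share.

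**Figure D3:**
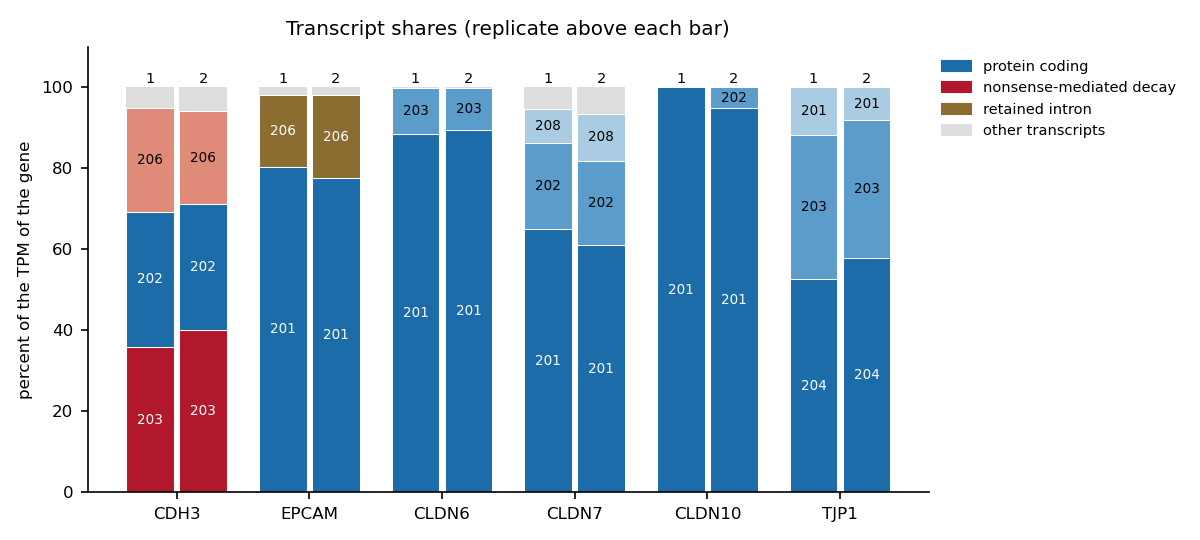
Percent of a gene's TPM on each transcript, for the 6 genes with more than 1 transcript at 5% or more, with a bar per library (the replicate number stands above it) and colours for the annotated transcript class. Blue coding transcripts make up most of each bar except that of CDH3, where CDH3-202 alone is blue, at 33.4% and 31.1%. Transcripts below 5% in both libraries are in grey, whatever their class.

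In the order by summed TPM, most neighbours were apart by more than their spread over the libraries. EPCAM was 1.46 times CLDN6, and CLDN6 was 3.83 times CDH3, the widest step except that to CLDN10. CDH3 was 1.19 times CLDN7, CLDN7 was 1.23 times CDH2, CDH2 was 1.21 times CDH1, CDH1 was 1.94 times CLDN4, and CLDN4 was 1.55 times TJP1. TJP1 and CLDN3 differed 1.01-fold with overlapping ranges. CLDN3 was 5.79 times CLDN10, and EPCAM was 188 and 160 times CLDN10. As shares of reads, EPCAM was 91.5 times CLDN10 in replicate 1 and 80.8 times in replicate 2. The level of CLDN10 per length is uncertain, as described above. With 2 libraries, a gap between ranges is a description and not a test.

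The libraries were then set against each other. Each gene was tested with a two-sided exact binomial test in edgeR on the recovered reads, with Benjamini-Hochberg adjustment over 15299 genes, which compares 2 libraries with counting noise and not conditions. Among the 10 adhesion genes, 3 were called at an adjusted p of 0.05, against 13.1% of all genes tested. CDH2 and CLDN4 were called higher in replicate 2, where 6.78% of all genes were, and CDH1 was called lower, where 6.35% were. Deeply counted genes such as CDH1 and CDH2 reach the threshold at small differences, and with 1 library on each side there is no replicate check. The median log2 difference of the 10 genes was -0.02, with 4 above 0 and 6 below, beside -0.0077 over the 13898 genes whose mean reached 1 CPM. E-cadherin and N-cadherin were thus called in opposite directions, and the CDH2 to CDH1 ratio in reads moved from 0.828 to 1.05. Among the 3 detected fibroblast markers, calls went both ways in the same edgeR exact binomial test: COL1A2 was called lower in replicate 2 (455 and 424 CPM, adjusted p = 7.81e-05), LUM was called higher (9.28 and 13.1 CPM, adjusted p = 0.00174), and THY1 had 24.3 and 28.0 CPM (adjusted p = 0.0747). Their median log2 difference was 0.20, and their part in the differences of CDH1 and CDH2 was not tested.

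**Figure D4:**
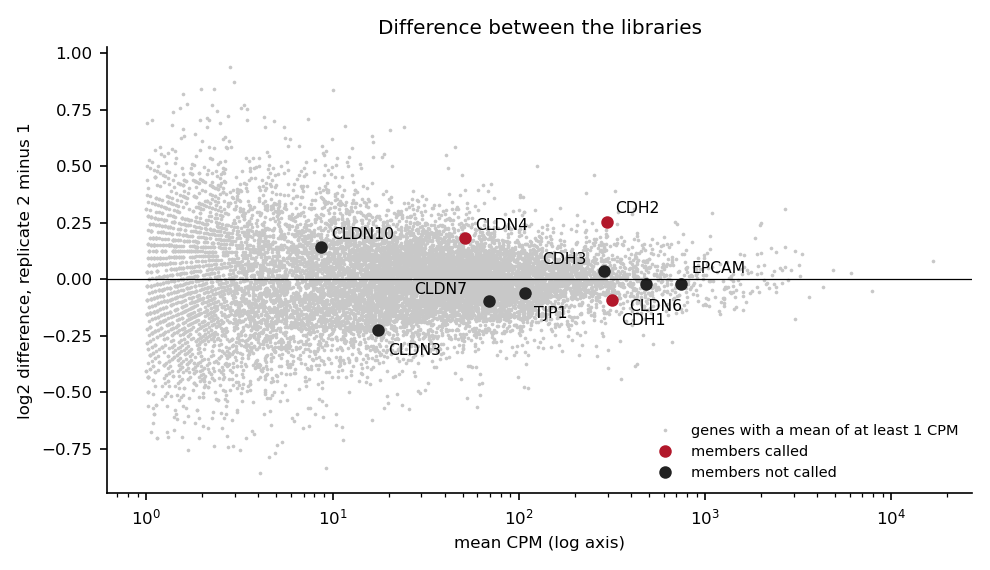
Log2 difference between the libraries (replicate 2 minus replicate 1, on the log2(CPM + 1) scale) against mean CPM (log axis), with each gene of at least 1 CPM in grey, the adhesion genes called by the exact binomial test in red and those not called in black. CDH2 at 0.25 lies highest of the 10 and CLDN3 at -0.23 lies lowest.

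Other parts of the junctions were read from lists of genes around the 10. Calls in each list stand beside the 6.78% of all genes tested that were called higher in replicate 2 and the 6.35% called lower. Of 13 catenins, nectins and other plaque genes, 11 were detected, with 2 called higher and 1 lower in replicate 2 (edgeR's exact binomial test, as above). The 3 with most reads were JUP, or plakoglobin, with 519 and 495 CPM (lower, adjusted p = 0.0123), alpha-catenin CTNNA1 with 452 and 478 CPM (higher, adjusted p = 0.000221) and NECTIN2 with 297 and 295 CPM (adjusted p = 0.957). The other called gene was beta-catenin, CTNNB1, with 285 and 302 CPM (higher, adjusted p = 0.00325). The cytoplasmic partners of E-cadherin and N-cadherin were thus present in both libraries.

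Of 20 tight junction genes beside the claudins and TJP1, 18 were detected, with 1 called in each direction. F11R, which encodes the junctional adhesion molecule JAM-A, had most reads with 700.2 and 672 CPM (lower in replicate 2, adjusted p = 0.0182 in edgeR's exact binomial test). Cingulin, CGN, a scaffold that binds ZO-1, had 114 and 124 CPM (higher, adjusted p = 0.0112), and the polarity kinase gene PRKCI had 114 and 121 CPM (adjusted p = 0.0741). Of 12 desmosome genes 7 were detected, and 0 were called higher and 2 lower, against 6.78% and 6.35% of all genes tested. Desmoglein DSG2 had 296 and 303 CPM (adjusted p = 0.312), desmoplakin DSP had 304 and 269 CPM (lower, adjusted p = 2.72e-09), and plakophilin PKP3 had 131 and 119 CPM (lower, adjusted p = 0.00553). Desmoplakin and E-cadherin were thus both called lower in replicate 2, in a test of 2 libraries.

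Of 11 genes for EPCAM partners and the proteases that act on it, 10 were detected. The tetraspanin gene CD9 had most reads with 590 and 599 CPM, followed by the protease inhibitor genes SPINT1 with 314 and 315 CPM and SPINT2 with 217 and 213 CPM. Matriptase, ST14, a protease held in check by both inhibitors, had 153 and 160 CPM.

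Regulators of the epithelial state were detected unevenly. Of 16 genes, 11 were detected and 0 were called between the libraries at an adjusted p of 0.05, against 13.1% of all genes tested. Per length, the epithelial splicing regulators led the list, with ESRP1 at 110 and 106 TPM (251 and 252 CPM) and ESRP2 at 44.1 and 44.4 TPM (102 and 97.4 CPM). The Grainyhead-like factor GRHL2, an activator of CDH1 and claudin genes, was at 16.6 and 17.5 TPM (66.5 and 70.4 CPM). OVOL2, a repressor of mesenchymal genes, was at 13.5 and 13.4 TPM, and its paralog OVOL1 at 5.67 and 5.61 TPM. GRHL1 was at 10.4 and 10.9 TPM and GRHL3 at 2.31 and 2.92 TPM. All 7 of these epithelial factors were thus detected in both libraries.

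The repressors known to act on CDH1 differed among themselves. SNAI1 was at 9.87 and 8.90 TPM (12.1 and 10.8 CPM) and TWIST1 at 13.0 and 11.99 TPM (10.5 and 9.55 CPM). TWIST2 was at 3.97 and 2.66 TPM and SNAI2 at 1.26 and 1.31 TPM. SNAI3, at 0.911 and 1.08 CPM, missed the threshold of detection in replicate 1. ZEB1 had no read in either library, and ZEB2 had 1 read in replicate 1 and none in replicate 2. SNAI1 and TWIST1 were thus within the range of the GRHL and OVOL factors per length, and the ZEB genes were at or near 0. The intestinal factor CDX2, at 0.373 and 0.225 CPM, was not detected.

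**Figure D5:**
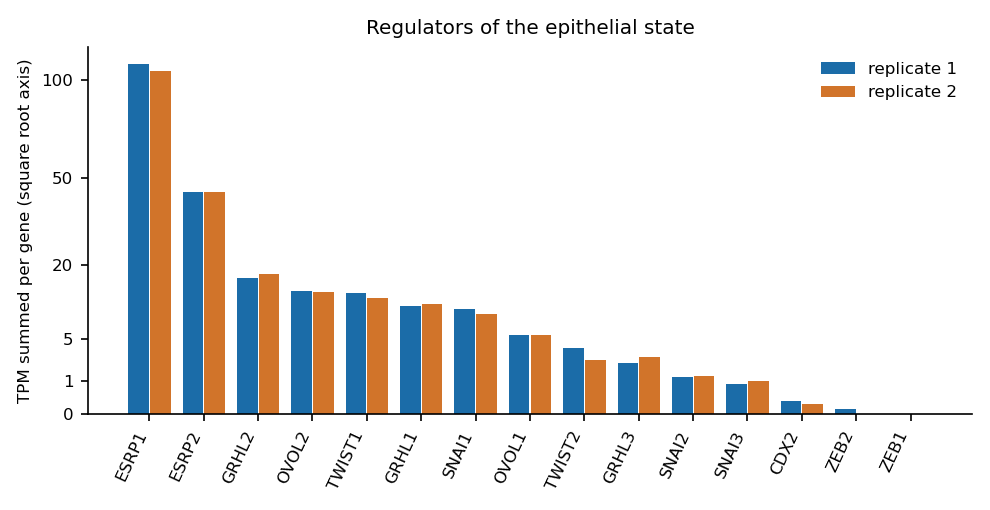
TPM summed per gene (square root axis) of the regulators of the epithelial state named in the text, replicate 1 in blue and replicate 2 in orange, ordered by mean. ESRP1 is highest with 110 and 106 TPM, and ZEB2 and ZEB1 end the order at or near 0.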

How the data were processed

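The authors made strand-specific libraries of polyadenylated RNA, per the labels' protocols. The submitters' processing notes name Trim Galore 0.6.10, STAR 2.7.11a, Salmon 1.10.2 and DESeq2 with the build GRCh38, with no role given. The deposited gene table is named as CPM, but the signal in it is the count of reads over a single scaling factor in each library: a value was a whole multiple of 1.02 (replicate 1) or 1.12 (replicate 2) in 100% of cases within 0.01 of a read. Whole reads were recovered by that division, and CPM was taken from them. The deposited transcript table holds TPM, made by the authors with Salmon per the table's name. In both tables the header has no name for the identifier column, so the first library name was read as the first column of values. The genes of transcripts came from GENCODE 29 on GRCh38, matched on the identifier before its version, which held 201667 of 251955 transcripts and 94.8% of TPM in each library, leaving 50288 transcripts with no gene. Of the 63 transcripts of the 10 genes, 12 had another version there, so their structure may differ from that used by the authors.

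Libraries were compared with edgeR 4.0.16 (binomTest on genes kept by filterByExpr, with TMM library sizes and a Benjamini-Hochberg threshold of 0.05) in R 4.3.3, and the calculation was tested on simulated data. Reads were predicted per gene as TPM times transcript length, scaled to the same sum over matched genes. Promoter windows and their starts are from RefSeq, and shared words were counted over all GENCODE 29 transcripts. Alternatives used TPM, other library sizes (DESeq2 1.42.0), pseudocount 0.1, other thresholds, reads per kb, coding transcripts alone and each library alone. The genes, the lists and the markers were chosen with earlier results of these data known. Named were the 10 genes, other detected cadherins and claudins, the 3 highest detected genes of each other list, every regulator, and transcripts with at least 5% of a gene's TPM. CDH3-201, CLDN10-203, CTNNB1, ST14, CLDN9, the family members without a read and the markers were named outside this rule, after their values were seen. Some items of the lists are not reported here.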

Additional observations from a re-analysis of the deposited data

How the results depend on the processing

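All 10 genes stayed detected at 0.1 CPM, at 5 CPM and at 1 TPM, and 3 were called between the libraries with DESeq2 size factors, with total reads and with no filter on low values, where 1716 to 2009 of all genes were called. Summed over the 10 genes the level was 2388 CPM and 1938 TPM, which are different units, and each library alone gave 2379 to 2396 CPM. The order by TPM changed at 7 places with reads per kb of merged exons, where CDH3 was the fifth, and at 4 places with protein-coding transcripts alone, where CDH3 was the sixth. Each library alone changed 0 to 2 places, as TJP1 and CLDN3 swapped in replicate 1. The log2 difference of CLDN7 reversed from -0.10 to 0.0062 with TPM, and the cause was not tested. The adhesion lists held 73 detected genes of 119, and 93 at 0.1 CPM or 64 at 5 CPM. The main transcript held at least 50% of the TPM in 9 of 10 genes, and in 10 among coding transcripts alone. Reads lay within 2-fold of the prediction for 9 genes, also with 200 bases taken off each transcript length, a setting chosen after seeing the data. Of the other checks on single genes, 89 kept their value or call and 10 differed through the TPM unit. Some of the 89 could not come out otherwise. The level in a single library always lies within the SD of the mean of 2 libraries, and the pseudocount check reused the same call. No paired analysis was possible because there is only 1 group here, and a difference between the libraries has no value with a library left out. The depth of a transcript is unknown, which limits all transcript shares.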

Other observations

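The tables disagreed for 2 junction genes outside the 10, chosen after their values were seen. CTNND1, which encodes the cadherin partner p120-catenin, had 8.08 and 9.28 CPM against 44.8 and 42.2 TPM, or 0.0477 and 0.0581 times the prediction. DSC2, a desmosomal cadherin, went the other way, with 81.5 and 85.2 CPM against 0.990 and 1.06 TPM. The levels of these genes differ by table, and the cause was not tested.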
